A study of Mus musculus with 16 samples.

Results

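The first step of feeder removal was examined in cultured mouse male germline stem cells: the RNA library taken 4 days after transfer to Matrigel was set against the library of the same culture series on feeders, called day 0. The 2 libraries were found by their titles among 16 samples, of which 12 are RNA libraries and 4 are ATAC-seq libraries that were not analysed here. Each RNA group held 1 library, so the differences below carry no error from replicates, and no test was run. The tables list 27128 genes. After symbols of predicted loci (those starting with LOC or EG) were set aside, 8818 genes had a mean of at least 10 CPM (counts set relative to the library total, scaled with TMM factors) over the day 0 and day 4 libraries, and these are called well counted below.

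All cells came from B6;CBA-Tg(Pou5f1-EGFP)2Mnn/J mice, a line that carries an EGFP reporter driven by the Pou5f1 (Oct4) promoter. Per the labels' protocols, germ cells positive for the reporter and negative for the receptor KIT were sorted at postnatal day 5.5 and grown in StemPro-34 SFM with GDNF, bFGF and EGF, and cultures were passaged weekly. Day 0 cells were grown on mouse embryonic fibroblasts (MEF), and day 4 and day 9 cells had been moved from MEF to Matrigel, a basement membrane extract. The Matrigel density of the day 4 and day 9 cultures, the number of animals behind them and whether MEF were removed before RNA was extracted are not given in the sources used here. A feeder culture of another experiment in the series, treated with the solvent DMSO, is used as the other feeder library without inhibitor.

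Germline stem cell cultures are kept in the self-renewing state mainly by GDNF, which acts through the co-receptor GFRA1 and the receptor RET, with FGF and EGF as further mitogens. Feeders supply extracellular matrix and soluble factors to such cultures, and a laminin-rich matrix can take over the adhesive part through integrins. Loss of self-renewal in spermatogonia is usually read from a fall of factors such as ID4, ETV5 and BCL6B and a rise of KIT and STRA8.

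The day 0 library held 7661976 expected counts and the day 4 library 11873119, within the range of 4335185 to 12019651 over the 12 RNA libraries. Counts above 0 were present for 17530 and 17925 genes, and the floor of 3 counts stood for 0.389 and 0.254 CPM. Intervals on single ratios below are exact 95% Clopper-Pearson intervals of the split of reads between the 2 libraries, computed without the pseudocount. The reads were amplified and carry no molecular identifiers, so counting error is all that intervals and floors cover.

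Germ cell markers were abundant in both libraries. All 19 matched germ cell markers were well counted, and their summed level was 9353 CPM at day 0 and 9373 CPM at day 4. Dazl, an RNA-binding protein of germ cells, was at 2047 and 1951 CPM, and Ddx4, the germ cell RNA helicase, was at 865 and 829 CPM. None of the 19 passed 1.5-fold. Of 18 macrophage and blood cell markers none was well counted and 10 were at or under the floor in both libraries, and their summed level was 13.4 and 15.1 CPM. Itgam (8 and 0 counts), Sfpi1 (4 and 0 counts) and Laptm5 (0 and 10 counts) were past 1.5-fold. Of 20 Sertoli, Leydig and myoid cell markers, 10 were at or under the floor and only Acta2 was well counted. Below that level Myh11, of smooth muscle, had 13 and 0 counts and Star, of steroid-making cells, 7 and 31 counts. Of 14 endothelial markers 3 were well counted and none of these passed 1.5-fold. Below that level, Pecam1 was at 10.1 and 3.30 CPM from 78 and 39 counts, Eng at 4.93 and 9.73 CPM from 38 and 115 counts, and Robo4 had 0 and 7 counts; these 3 were past 1.5-fold.

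Summed fibroblast marker RNA was at a similar level at days 0, 4 and 9. The summed level of 25 fibroblast markers was 485 CPM at day 0, 522 CPM at day 4 and 452 CPM at day 9, against 4578 CPM in the DMSO feeder library. Col1a1, the main chain of type I collagen, was at 70.5 CPM at day 0, 58.7 CPM at day 4, 74.8 CPM at day 9 and 1088 CPM with DMSO. Lox, which cross-links collagen, was at 62.4, 78.7, 42.2 and 466 CPM in the same order. The day 0 library thus lay beside the day 4 and day 9 libraries and not beside the other feeder library in the sum, Col1a1 and Lox. Not every marker followed this order. Acta2 was at 45.0, 59.0, 6.92 and 16.4 CPM in the same order, and Tagln at 5.44, 3.98, 3.09 and 4.79 CPM. In bulk RNA, fewer cells of a type and less RNA per cell cannot be told apart.

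The day 4 and day 0 transcriptomes differed little. Of 8818 well-counted genes, 235 (2.67%) passed 1.5-fold, with 144 (1.63%) higher and 91 (1.03%) lower at day 4. Past 2-fold were 9 genes (0.102%), of which 6 were higher (0.068%) and 3 lower (0.034%). Ratios are given throughout as the log2 ratio of CPM + 1, day 4 over day 0, where 1.5-fold is 0.58. The median ratio was 0.03, the quartiles were -0.10 and 0.16, and the middle 95% of the genes lay between -0.45 and 0.52. Of the 8818 genes, 4945 (56.1%) were higher and 3873 (43.9%) lower at day 4 by any amount. The log2 levels of the 2 libraries had a Pearson correlation of 0.988 across genes, a description only, since genes are no replicates. With DESeq2 size factors in place of TMM factors, 112 genes were higher and 110 lower past 1.5-fold, so the excess of higher genes depends on the scaling.

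For size, the same 8818 genes were compared in other pairs. Past 1.5-fold were 321 genes (3.64%) between day 9 and day 4, and 436 (4.94%) between day 9 and day 0, a comparison that shares the day 0 library. Past 2-fold were 29 (0.329%) and 48 (0.544%). Between the DMSO feeder culture and day 0, both labelled as grown on MEF, 3000 genes (34%) passed 1.5-fold and 1168 (13.2%) passed 2-fold. The DMSO library was shallower, with 5039912 counts. The step from day 0 to day 4 was thus the smallest of these 4 pairs, and the 2 feeder cultures were the farthest apart.

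Calls were mostly of low genes. Of the 1713 genes at 10 to 20 CPM, 101 were higher and 60 lower past 1.5-fold, while of the 619 genes at 300 CPM or more none was higher and 2 were lower. Counting noise is larger for low genes, and its part in these calls was not tested. The counting intervals of all 235 called genes excluded equality of the 2 libraries, for genes that were chosen by their ratio. Variation between libraries of the same kind was not measured.

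**Figure D1:**
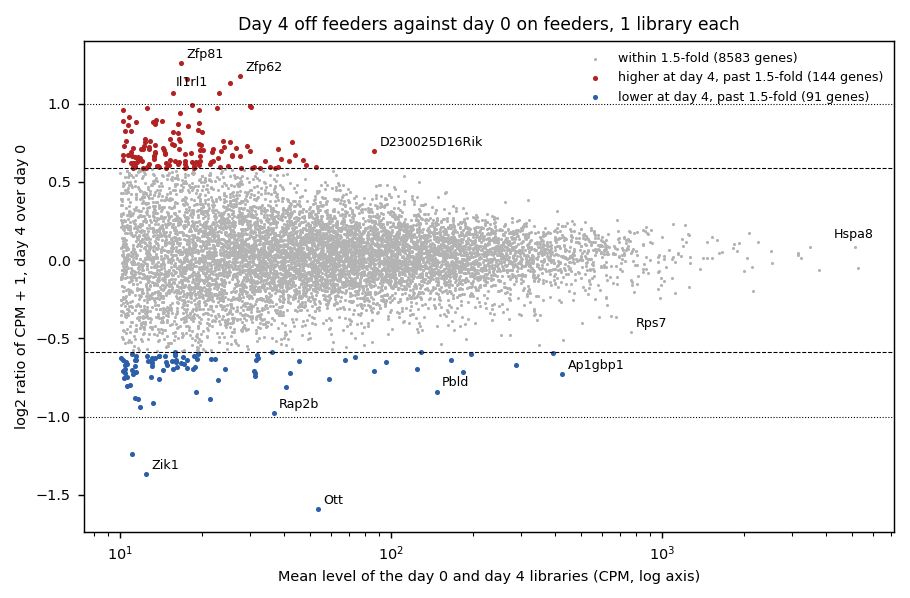
Log2 ratio of CPM + 1, day 4 over day 0, against the mean level of the 2 libraries (CPM, log axis) for 8818 well-counted genes, each point a gene. Dashed lines mark 1.5-fold and dotted lines 2-fold. The 144 higher genes (red) sit mostly below 50 CPM, and above 100 CPM the called genes are lower at day 4 (blue).

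Among the highest ratios were zinc finger genes. Zfp81, a KRAB zinc finger gene (GRCm38.p6 chromosome 17, 33329342 to 33358896), was at 9.46 CPM at day 0, 24.0 CPM at day 4, 21.5 CPM at day 9 and 8.78 CPM in the DMSO library. Its ratio was 1.26 (interval 0.97 to 1.74), the highest of the well-counted genes, and over the 12 libraries its level ran from 8.28 to 24.0 CPM. Zfp62 (chromosome 11, 49203261 to 49218816) rose from 16.6 to 38.7 CPM, a ratio of 1.17 (0.94 to 1.52). It stood at 37.6 CPM at day 9, against 13.8 CPM under DMSO. For both genes days 4 and 9 lay above day 0 and DMSO. The epithelial-like culture, labelled as grown on Matrigel at low density, was at 11.3 CPM for Zfp81, close to day 0, and at 24.4 CPM for Zfp62. The Matrigel density of days 4 and 9 is not given, so whether the conditions matched is unknown. Across all 12 libraries Zfp62 was highest in the GFP-low fraction, at 44.8 CPM. That fraction held cells sorted for low reporter signal from a culture at a higher Matrigel density than the epithelial-like one.

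Zfp111 rose from 20.1 to 40.5 CPM, and 2610020C11Rik, whose RefSeq symbol is Zfp157, rose from 19.96 to 40.5 CPM. BC011426, now Zfp959, rose from 11.02 to 22.1 CPM. At day 9 these 3 genes were at 33.2, 27.5 and 17.6 CPM, and in the DMSO library at 29.9, 28.5 and 7.79 CPM. Day 0 and DMSO lay below days 4 and 9 for Zfp111 and BC011426, whereas for 2610020C11Rik the DMSO library lay above day 9.

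Il1rl1, which encodes ST2, the receptor for interleukin-33 (chromosome 1, 40404864 to 40465418), rose from 15.6 to 35.3 CPM, a ratio of 1.13 (0.89 to 1.49). It was at 7.16 CPM at day 9, 17.6 CPM with DMSO and 0.70 CPM in the epithelial-like culture, so day 4 held its highest level of the 12 libraries. Ifi204, an interferon-inducible sensor of nucleic acids, rose from 9.72 to 21.5 CPM (ratio 1.07, interval 0.77 to 1.54) and was at 17.8 CPM at day 9, against 4.99 CPM under DMSO. Gsdmdc1, now Gsdmd, the pore-forming protein gasdermin D, rose from 15.04 to 30.4 CPM and was at 23.8 and 18.6 CPM in those libraries.

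Aldh6a1, a mitochondrial dehydrogenase of valine breakdown, rose from 10.5 to 24.6 CPM, a ratio of 1.16 (0.87 to 1.60), and was at 17.8 CPM at day 9. Carm1, an arginine methyltransferase that acts on histones, rose from 6.61 to 13.8 CPM (0.96, interval 0.60 to 1.54) and was at 9.44 CPM at day 9, against 14.2 CPM under DMSO. Day 0 was the lowest of the 12 libraries for Carm1. Stambp, a deubiquitinase of endosomes, rose from 8.17 to 17.0 CPM, and Galntl1 (now Galnt16), which starts O-linked glycans, rose from 7.13 to 14.3 CPM. Ccdc15, Tbc1d2b and 9030025P20Rik (now Ermard) completed the 15 highest, with ratios of 1.07, 0.99 and 0.96.

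The lowest ratio of the well-counted genes was that of Ott, an X-linked gene of a multicopy family expressed in ovary and testis. It was at 81.2 CPM at day 0, 26.2 CPM at day 4, 147 CPM at day 9 and 29.3 CPM with DMSO, a ratio of -1.59 (-1.83 to -1.43). Its counts are not whole (a tolerance of 0.005 counts is used throughout), which is how reads shared between gene copies appear, so its level is uncertain. Zik1, a KRAB zinc finger gene (chromosome 7, 10487224 to 10495381), fell from 18.4 to 6.52 CPM, a ratio of -1.37 (-1.92 to -1.09). It was at 7.89 CPM at day 9, against 9.98 CPM under DMSO, so day 0 stood above the other 3 libraries. Ddx26b (now Ints6l), related to a subunit of the Integrator complex, fell from 15.95 to 6.18 CPM (-1.24) and was at 13.3 CPM at day 9.

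Rap2b, a small GTPase of the Ras family, fell from 49.1 to 24.5 CPM, a ratio of -0.98 (-1.23 to -0.78), and was at 27.7 CPM at day 9, against 21.6 CPM under DMSO. Slk, a Ste20-type kinase of the cytoskeleton, fell from 28.1 to 14.7 CPM, and Oxsr1, a kinase of the response to osmotic stress, fell from 24.8 to 13.4 CPM. Cap2, an actin regulator, fell from 15.04 to 7.70 CPM. Dclre1a, a nuclease of crosslink repair, fell from 17.5 to 8.80 CPM, and Senp6, a SUMO protease, fell from 29.0 to 16.7 CPM. At day 9 Dclre1a was at 17.0 CPM and Senp6 at 27.0 CPM, close to day 0.

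Among the 15 lowest ratios, day 0 was the highest of the 12 libraries for Zik1, Rap2b, Slc25a35, Cap2, Oxsr1, Pbld and Kctd15, among others. The choice of genes used the day 0 value, so this describes where that library stood and is not a separate finding. Pbld (now Pbld1) was the most abundant of the 15, at 189 CPM at day 0, 105 CPM at day 4, 116 CPM at day 9 and 54.9 CPM with DMSO.

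**Figure D2:**
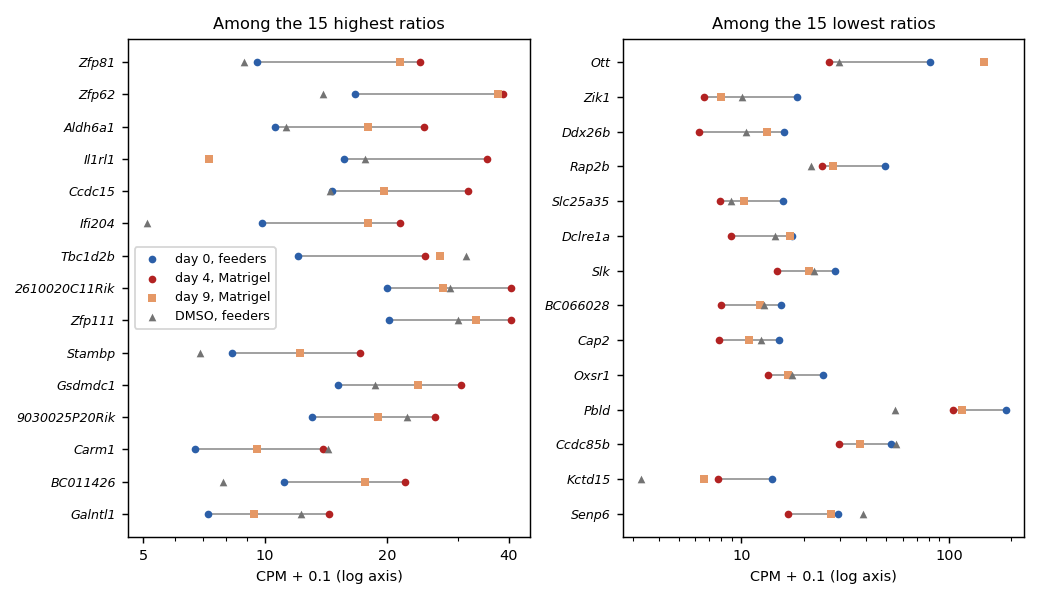
Levels (CPM + 0.1, log axis) of genes among the 15 highest and the 15 lowest ratios in the day 0, day 4, day 9 and DMSO libraries, 1 library per symbol; grey bars join day 0 and day 4. Zfp81 and Zfp62 are near their day 4 level at day 9, Il1rl1 is at 7.16 CPM at day 9, and Ott is highest at day 9.

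By absolute change, the largest rise was that of Hspa8, the constitutive HSP70 chaperone, at 4999 CPM at day 0 and 5288 CPM at day 4 (ratio 0.08). Atp5b, a subunit of the ATP synthase, was at 1965 and 2217 CPM, and the lysosomal proteins Lamp1 and Ctsd were at 1115 and 1299 CPM and at 1010 and 1185 CPM. None of these passed 1.5-fold. Among the largest falls, Ppia (cyclophilin A) was at 2310 and 2010 CPM, Rps7 at 884 and 642 CPM and Sub1 at 758 and 589 CPM. Only Ap1gbp1 (now Synrg), a partner of the clathrin adaptor AP-1, passed 1.5-fold, and it fell from 533 to 321 CPM, with 354 CPM at day 9 and 212 CPM with DMSO.

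Of the 4514 genes at 50 CPM or more, 17 passed 1.5-fold and 15 of these fell. Beside Ott, Pbld, Ap1gbp1 and the ribosomal gene Rpl38 they included Rab33b, a Rab GTPase of the Golgi, which fell from 355 to 223 CPM, and A230046K03Rik, which fell from 475 to 314 CPM. Cflar, the inhibitor of caspase 8, fell from 154 to 102 CPM. H2-T23, a non-classical MHC class I gene, fell from 74.0 to 43.3 CPM, and Tapbpl, a chaperone of peptide loading, fell from 237 to 156 CPM. Il8rb, the chemokine receptor CXCR2, fell from 82.5 to 52.6 CPM. Day 0 was the highest of the 12 libraries for 13 of the 15. These genes too were chosen with the day 0 value, so this rank is a description and not a separate finding.

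All 15 of these genes had counts that were not whole, against 14.4% of all genes at 50 CPM or more, so part of their reads was assigned by estimate between genes. Its part in these falls was not tested. The 2 abundant genes that rose were D230025D16Rik, from 65.9 to 107 CPM (109 CPM at day 9 and 62.9 CPM with DMSO), and AI449175, from 41.9 to 63.6 CPM.

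The 50 gene lists held 810 distinct well-counted genes, of which 18 (2.22%) passed 1.5-fold, 10 higher and 8 lower, beside 2.67% over all well-counted genes. With a pseudocount of 5 in place of 1, 8 of the 18 fell short of 1.5-fold: Id4, Fbln2, Lamb2, Pkp2, Fzd7, Phc3, Piwil1 and Zfp780b, with ratios of -0.55, 0.58, -0.54, 0.52, 0.55, 0.53, 0.48 and -0.53. Counts of list members are of well-counted ones unless a gene is said to be below that level, and tallies of higher and lower members stand beside 56.1% higher over all genes. Below the level, where counts are few, 1637 of 7031 named genes with counts (23.3%) were past 1.5-fold, 867 higher (12.3%) and 770 lower (11%). Of the 334 list genes there, 83 were past it, 51 higher and 32 lower, and these are given with each list described. In 39 of the 50 lists no member passed. Among the 46 lists with at least 5 well-counted members, the medians ran from -0.14 to 0.23. In 13 lists the median changed sign under another scaling, and in each of these it was within 0.041 of 0, so such medians are given without a direction.

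**Figure D3:**
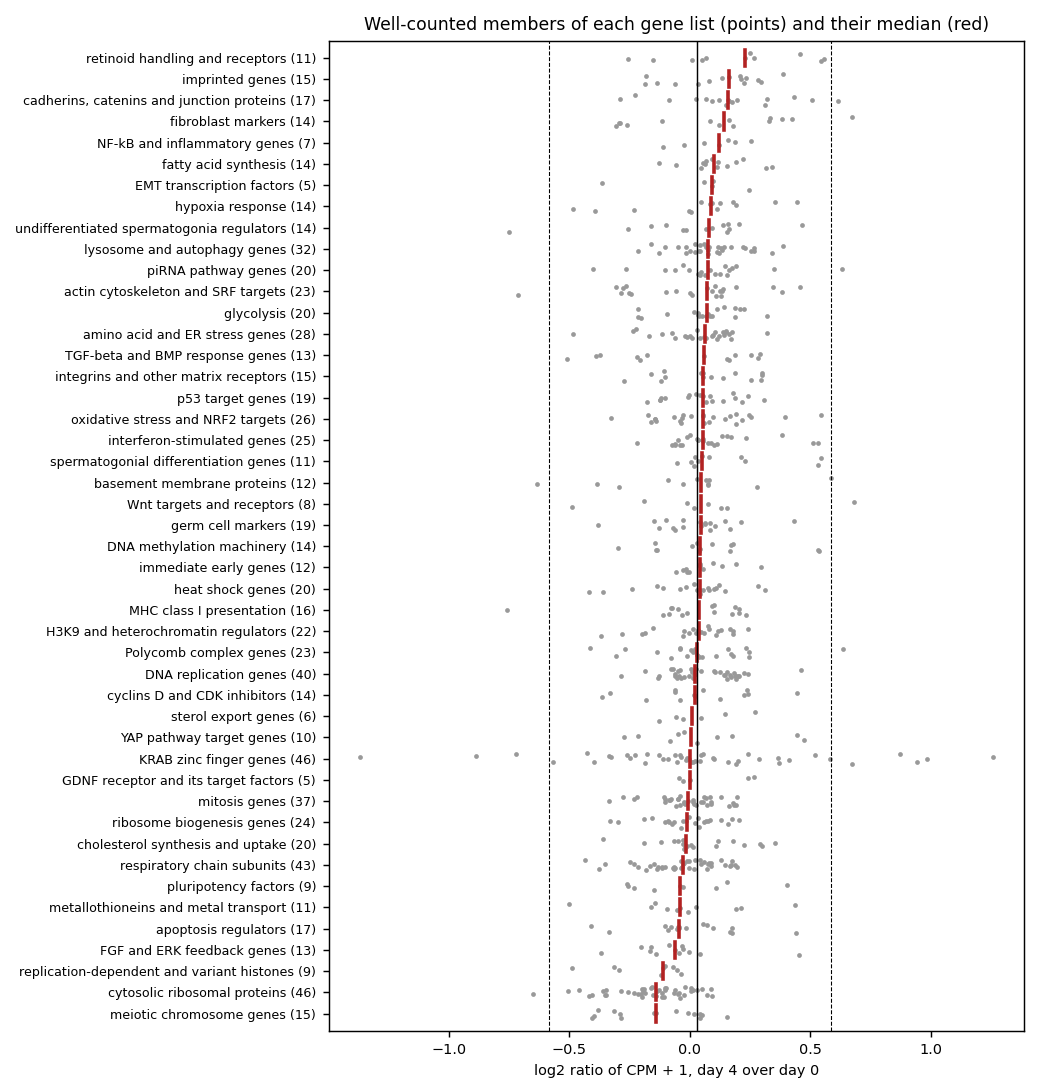
Log2 ratios of CPM + 1, day 4 over day 0, of the well-counted members (grey points) of each list with at least 5 of them, with the list's median in red and the number of members in parentheses. The solid line marks the median of 0.03 over all genes and the dashed lines 1.5-fold. Most points lie between the dashed lines, and KRAB zinc finger genes spread the widest.

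The 5 well-counted GDNF receptors and target factors differed by less than 1.5-fold. Ret was at 205 CPM in both libraries, and its co-receptor Gfra1 was at 35.5 CPM at day 0 and 42.9 CPM at day 4. Of the transcription factors downstream, Etv5 was at 174 and 169 CPM, Bcl6b at 40.2 and 47.6 CPM and Mycn at 159 and 156 CPM. Below the level for a well-counted gene, Nanos2, the RNA-binding guardian of the stem cell state, was at 9.59 CPM at day 0, 4.49 CPM at day 4, 5.45 CPM at day 9 and 9.78 CPM with DMSO, from 74 and 53 counts at days 0 and 4. Its ratio was -0.95 (-1.63 to -0.57), past 1.5-fold.

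Of 14 well-counted regulators of undifferentiated spermatogonia, 8 were higher (56.1% over all genes), 6 lower and 1 passed 1.5-fold. Id4, an inhibitor of bHLH factors that marks spermatogonial stem cells, fell from 13.2 to 7.45 CPM, a ratio of -0.75 (-1.26 to -0.40) from 102 and 88 counts. It was at 5.61 CPM at day 9, against 8.58 CPM under DMSO, so day 0 was the highest of the 4 libraries. The more abundant factors were close to their day 0 level: Sall4 was at 303 and 283 CPM, Taf4b at 225 and 236 CPM, Foxo1 at 95.5 and 102 CPM and Zbtb16 (PLZF) at 47.6 and 53.3 CPM. Pou5f1, the gene whose promoter drives the reporter, was at 62.6 and 61.4 CPM. Below the level, Eomes was past 1.5-fold, from 4 and 26 counts.

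None of the 11 well-counted genes of spermatogonial differentiation passed 1.5-fold, while 10 were higher and the list's median was 0.05 against 0.03 over all genes. Kit was at 57.6 CPM at day 0 and 66.9 CPM at day 4, Stra8 at 40.1 and 41.5 CPM and Sohlh1 at 191 and 194 CPM. The 2 highest members were Rarg, the retinoic acid receptor of spermatogonia, at 13.0 and 19.4 CPM (0.55), and the DNA methyltransferase Dnmt3b at 91.0 and 132 CPM (0.53, interval 0.41 to 0.67). Both stayed short of 1.5-fold.

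**Figure D4:**
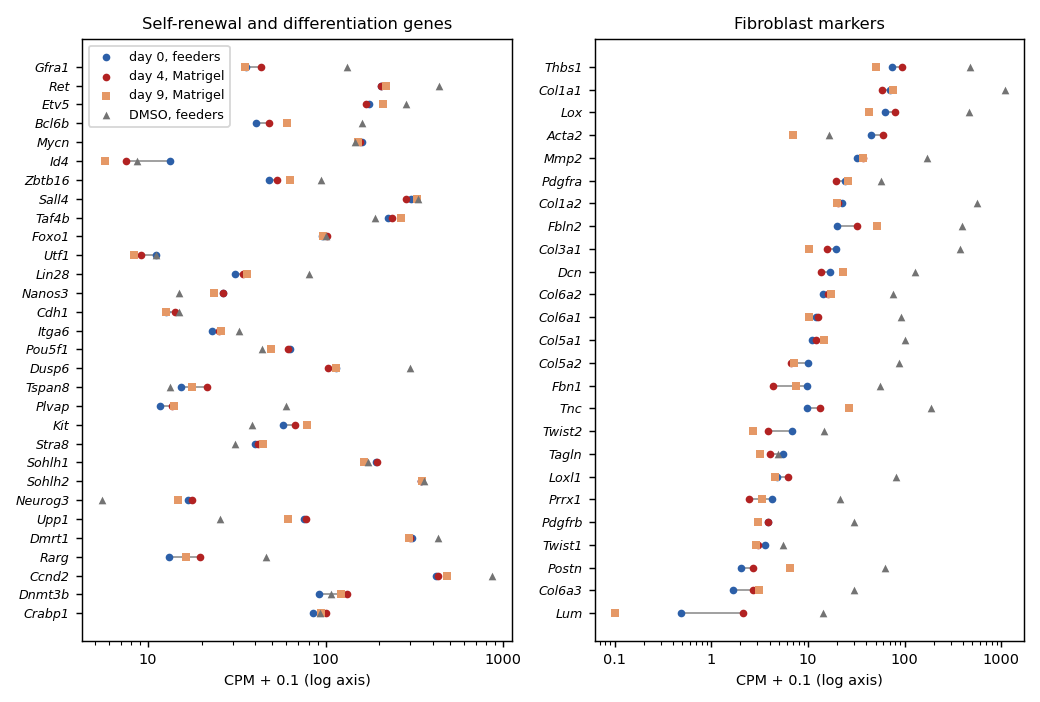
Levels (CPM + 0.1, log axis) of well-counted genes of self-renewal and differentiation (left) and of the 25 fibroblast markers (right) in the day 0, day 4, day 9 and DMSO libraries, 1 library per symbol; grey bars join day 0 and day 4. Ret, Etv5 and Kit lie close together at days 0 and 4, Id4 is lower at day 4, and the DMSO feeder library is far to the right for the collagens.

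Of 15 well-counted meiotic chromosome genes 10 were lower, with a median of -0.14 and none past 1.5-fold. Sycp3, of the axis of meiotic chromosomes, was at 388 CPM at day 0, 298 CPM at day 4 and 307 CPM at day 9, and Sycp1, the transverse filament protein of the synaptonemal complex, was at 214, 161 and 174 CPM. Below the level 2 meiotic genes were past 1.5-fold, both higher: Msh4, a MutS homologue of crossover formation, at 4.41 and 10.2 CPM (1.06, interval 0.66 to 1.81), and Spo11, which makes the meiotic breaks, from 1 and 13 counts. Of 9 well-counted pluripotency factors 3 were higher and 6 lower, with none past 1.5-fold. Below the level, Nanog at 8.82 and 4.91 CPM, Klf4 at 11.8 and 7.28 CPM and Dppa2 at 2.98 and 7.45 CPM were past 1.5-fold, as were Fgf4, from 4 and 0 counts, and Prdm14, from 0 and 7 counts. Retinoid genes had a median of 0.23, with 9 of 11 higher and none past 1.5-fold; Rbp4, a retinol carrier, was at 14.9 and 22.4 CPM and Aldh1a2, which makes retinoic acid, at 40.8 and 49.3 CPM. Over the retinoid genes at 30 CPM or more the median was 0.15. Below the level, Aldh1a3 was past 1.5-fold at 3.76 and 7.62 CPM.

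None of the 15 well-counted integrins and other matrix receptors passed 1.5-fold with the change of substrate. Their ratios ran from -0.27 to 0.30. Itgb1, the beta-1 chain shared by the laminin receptors, was at 236 and 251 CPM, and its partner Itga6 was at 22.7 and 25.1 CPM. Sdc4, a syndecan, was the most abundant, at 644 and 733 CPM, and Dag1, dystroglycan, was at 228 and 237 CPM. Of 12 members below the level, Bcam, a laminin receptor, was past 1.5-fold lower from 17 and 8 counts, and Itga2 higher from 0 and 6 counts.

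Of 12 well-counted basement membrane genes, 1 passed 1.5-fold. Lamb2, the laminin beta-2 chain, fell from 27.5 to 17.3 CPM, a ratio of -0.63 (-0.95 to -0.38), and was at 19.8 CPM at day 9, against 56.7 CPM under DMSO. The more abundant beta-1 chain, Lamb1-1, was at 199 and 196 CPM, and the nidogens Nid1 and Nid2, which link laminin to collagen IV, were at 112 and 136 CPM and at 237 and 250 CPM. Lama4 was at 9.20 and 14.3 CPM, just short of 1.5-fold at 0.58. Below the level, Col4a5 was past 1.5-fold, from 1 and 13 counts.

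Among 14 well-counted fibroblast markers 9 were higher and 1 passed 1.5-fold, with a median of 0.14. The median was 0.33 over markers at 30 CPM or more and 0.26 in the deposited TPM. Fbln2, a fibulin of elastic matrix, rose from 19.7 to 32.0 CPM, a ratio of 0.67 (0.42 to 0.98), and was at 51.2 CPM at day 9, against 392 CPM under DMSO. Acta2, smooth muscle actin, was at 45.0 CPM at day 0, 59.0 CPM at day 4, 6.92 CPM at day 9 and 16.4 CPM with DMSO. Of 11 fibroblast markers below the level 3 were past 1.5-fold lower and 1 higher. The lower ones were the fibrillin gene Fbn1 at 9.72 and 4.23 CPM (-1.04, interval -1.75 to -0.66), Twist2 at 6.74 and 3.72 CPM and Prrx1 at 4.15 and 2.37 CPM, and the higher one was Lum, from 3 and 24 counts.

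Junction genes were higher in 14 of 17 cases, with a median of 0.16 and 1 past 1.5-fold. Pkp2, a desmosomal plakophilin, rose from 16.7 to 26.2 CPM, a ratio of 0.62 (0.34 to 0.95), and was at 30.3 CPM at day 9, against 28.1 CPM under DMSO. Day 0 was thus the lowest of these 4 libraries for Pkp2. Rbm35a (now Esrp1), a splicing factor of epithelial cells, was at 22.8 and 32.8 CPM, and Cdh3 (P-cadherin) was at 24.4 and 33.3 CPM. Cdh1, E-cadherin, was at 12.6 and 14.1 CPM, and Ctnnb1, beta-catenin, at 453 and 426 CPM. None of the 5 well-counted transcription factors of epithelial-mesenchymal transition passed, and Snai1 was at 38.6 and 41.2 CPM. Of the 8 below the level, 4 were past 1.5-fold, all lower: Zeb2 from 19 and 5 counts (-1.28), Snai2 from 5 and 0 counts, and Twist2 and Prrx1, also fibroblast markers, with ratios of -0.71 and -0.61. Among junction genes below the level, Dsg2 (4 and 40 counts), Cldn1 (3 and 18 counts) and Krt8 (26 and 80 counts) were past 1.5-fold higher and Cldn7 (25 and 17 counts) lower.

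Of 23 well-counted genes of the actin cytoskeleton and SRF targets, 14 were higher (56.1% over all genes) and 9 lower. S100a11, a calcium-binding protein of the cell cortex, fell from 38.9 to 23.4 CPM, a ratio of -0.71 (-0.98 to -0.49), and was at 29.5 CPM at day 9, against 84.2 CPM under DMSO. Actb was at 1839 and 1984 CPM, and Flna, filamin A, was at 70.3 CPM in both libraries. Below the level, Srf was past 1.5-fold higher at 7.13 and 11.3 CPM, and Actn1 lower at 4.28 and 1.95 CPM. No YAP target passed 1.5-fold among 10 well-counted ones, and below the level Crim1 (24 and 72 counts) and Foxf2 (0 and 7 counts) were past it, both higher.

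Of 13 well-counted genes of FGF and ERK feedback, 11 were lower and 2 higher, with a median of -0.06 and none past 1.5-fold. Dusp6, a phosphatase that switches off ERK, was at 114 and 102 CPM, Egr1 at 219 CPM in both libraries, and Spry4, an inhibitor of the same pathway, at 18.4 and 25.6 CPM (0.45). No immediate early gene passed among 12, and below the level Atf3 (17 and 45 counts) was past 1.5-fold higher and Klf4 and Ier5 (53 and 49 counts) lower. Of 13 TGF-beta and BMP response genes none passed, and the lowest was Smad7, an inhibitor of the pathway, at 16.5 and 11.3 CPM (-0.51). Below the level, Inhbb (2 and 42 counts) and Id2 (1 and 12 counts) were past 1.5-fold, both higher. Among 8 Wnt genes, Fzd7 rose from 13.1 to 21.6 CPM, a ratio of 0.68 (0.38 to 1.07), and was at 15.1 CPM at day 9. The others stayed short of 1.5-fold and went both ways. Sp5, a Wnt target, was lower at 13.2 and 9.14 CPM (-0.49, interval -0.94 to -0.13), as were Nkd2 and Znrf3. Tcf7, Nkd1, Lgr4 and Ccnd1 were higher. Below the level, the Wnt targets Axin2, at 3.37 and 8.89 CPM (1.18, interval 0.77 to 2.08), and Lgr5, from 0 and 16 counts, were past 1.5-fold.

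Of 46 well-counted cytosolic ribosomal protein genes 38 were lower, with a median of -0.14 against 0.03 over all genes, and 1 passed 1.5-fold. Rpl38, of the large subunit, fell from 117 to 74.1 CPM, a ratio of -0.65 (-0.79 to -0.52), and was at 81.1 CPM at day 9, against 146 CPM under DMSO. Next in order were Rpl37 at 222 and 156 CPM (-0.50), Rps7 at 884 and 642 CPM (-0.46), Rps28 at 146 and 109 CPM (-0.42) and Rpl35 at 578 and 436 CPM (-0.40). The most abundant members differed less: Rpl4 was at 2551 and 2515 CPM and Rps2 at 1634 and 1691 CPM. Rpl3, below the level, was past 1.5-fold higher, at 4.02 and 7.70 CPM. The summed level of the list was 26694 CPM at day 0, 24611 CPM at day 4, 21746 CPM at day 9 and 34411 CPM with DMSO.

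Many ribosomal protein messages start with an oligopyrimidine tract that controls their translation, so the start sites of these 5 genes are shown for reference. Each window runs from 10 bases before to 20 bases from the RefSeq start on (GRCm38.p6), and capitals mark runs of at least 6 C or T letters that begin with C, searched on the transcribed strand only.
Rpl38 (chr11:114668570-114668599, plus strand): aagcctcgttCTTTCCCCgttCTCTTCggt
Rpl37 (chr15:5116603-5116632, plus strand): cctgggcggaagcttatccacaggaagtgg
Rps7 (chr12:28635934-28635963, minus strand): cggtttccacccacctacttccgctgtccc
Rps28 (chr17:33824543-33824572, minus strand): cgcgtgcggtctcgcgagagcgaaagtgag
Rpl35 (chr2:39005112-39005141, minus strand): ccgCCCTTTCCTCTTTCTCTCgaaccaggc
Rpl38 and Rpl35 held such a run, and the other 3 windows did not. A run was in 20 of 42 windows (47.6%) of 35 ribosomal protein genes and in 7235 of 32851 windows (22.0%) of all genes. A match describes the letters in the window and no more.

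Short transcripts had lower ratios, and ribosomal protein genes are short. Of the 155 well-counted genes under 600 nt, 129 (83.2%) were lower, against 43.9% over all genes, with a median of -0.18. The median was 0.05 at 1500 to 2500 nt and 0.0053 at 6000 nt or more, so the difference was at the short end. Outside the ribosomal list, 112 of 138 such genes were lower, with a median of -0.19. Ribosomal genes under 600 nt were lower in 17 of 17 cases with a median of -0.16, and those of 600 nt or more in 21 of 29 cases with a median of -0.12. At 600 to 1000 nt, 17 of 20 ribosomal genes were lower with a median of -0.18, and 307 of 502 other genes (61.2%) with a median of -0.05. At 600 to 1500 nt these were 19 of 24 with a median of -0.13, and 725 of 1451 (49.97%) with a median of 0.00013. Length was not matched within these ranges. The effective lengths in the tables correspond to a mean fragment of 150 nt at day 0 and 158 nt at day 4. In the deposited TPM, which allow for effective length, the median of the genes under 600 nt was -0.15 and that of the ribosomal list -0.11, with 37 of 46 lower. The part of transcript and fragment length in the ribosomal ratios was not tested further.

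**Figure D5:**
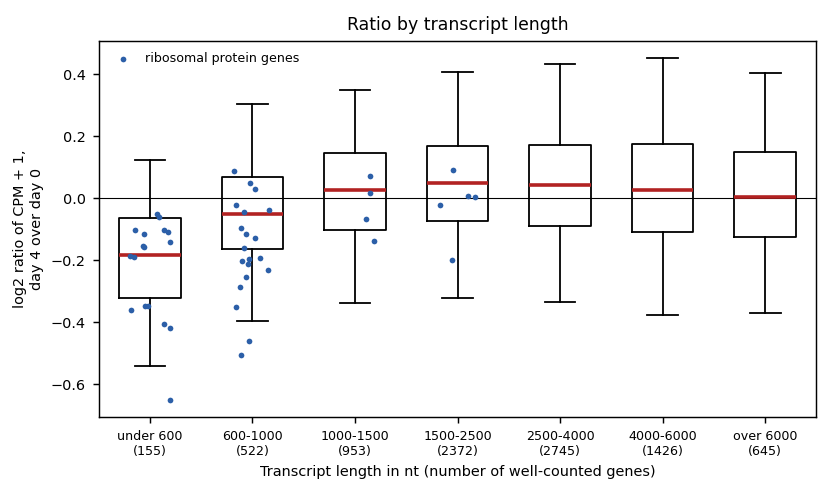
Log2 ratio of CPM + 1, day 4 over day 0, by transcript length in nt for 8818 well-counted genes. Boxes span the quartiles, red lines are medians and whiskers run from the 5th to the 95th percentile; blue points are the 46 ribosomal protein genes. The median of the 155 genes under 600 nt is -0.18 and that of the 522 genes of 600 to 1000 nt is -0.05.

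All 9 well-counted histone genes, mostly replacement variants, were lower, with a median of -0.11 and none past 1.5-fold. H3f3a was at 839 and 780 CPM and H1f0 at 104 and 85.1 CPM. Of 16 histone genes below the level, 2 were past 1.5-fold higher and 3 lower, among them Hist1h1e from 30 and 11 counts. Among 43 respiratory chain subunits, none passed 1.5-fold, and the lowest were the small subunits of cytochrome oxidase Cox7b (44.1 and 32.3 CPM), Cox7c (307 and 236 CPM) and Cox6c (338 and 265 CPM). The part of transcript length in the histone and respiratory chain ratios was not tested. Of all well-counted genes under 600 nt, 83.2% were lower. Ribosome biogenesis genes had no member past 1.5-fold among 24.

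Growth and metabolism otherwise differed by small amounts. Glycolysis genes were higher in 16 of 20 cases with a median of 0.07, among them Gapdh at 810 and 936 CPM and Aldoa at 523 and 595 CPM. Genes of fatty acid synthesis were higher in 12 of 14 cases with a median of 0.10, and Acaca, acetyl-CoA carboxylase, was at 40.8 and 51.0 CPM. Lysosome and autophagy genes were higher in 25 of 32 cases with a median of 0.08, among them Sqstm1, the autophagy receptor p62, at 622 and 742 CPM. No well-counted member of these 3 lists passed 1.5-fold, and below the level Eno2 (14 and 53 counts) and Acacb (52 and 140 counts) were past it, both higher.

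Stress and cell cycle lists had no well-counted member past 1.5-fold either. This held for 28 genes of amino acid and ER stress, 20 heat shock genes, 26 NRF2 targets, 19 p53 targets, 17 apoptosis regulators, 14 hypoxia genes, 40 replication genes and 37 mitosis genes. The highest NRF2 target was Gclc, the rate-limiting enzyme of glutathione synthesis, at 32.2 and 47.4 CPM (0.55). Of the stress genes Ddit4, an inhibitor of mTORC1, was at 22.4 and 15.7 CPM (-0.48). No member passed among 20 genes of cholesterol synthesis, 6 of sterol export, 11 of metal handling, 14 cyclins and CDK inhibitors, 7 inflammatory genes, 4 niche factors and 3 endothelial markers. Below the level, 3 p53 targets, Fas, Dcxr and Tnfrsf10b, were past 1.5-fold, all higher, with ratios of 0.69, 0.71 and 0.63. The NRF2 targets Ugt1a6a (0 and 56 counts) and Slc7a11 (2 and 14 counts) were higher too, and the niche factors Areg (13 and 1 counts) and Gdnf (6 and 1 counts) were lower. In the lists of ER stress, apoptosis, hypoxia, cholesterol synthesis, sterol export, cyclins and inflammatory genes, 1 to 3 members each were past it. The inhibitor of apoptosis Birc5, also a mitosis gene, was at 94.8 and 74.98 CPM (-0.33).

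KRAB zinc finger genes, which repress transposons through TRIM28, had the largest share past 1.5-fold. Of 103 listed genes 79 were matched and 46 were well counted, and 8 of these (17.4%) passed, 5 higher and 3 lower, with 23 above and 23 below their day 0 level. Low genes pass more often, so the same level was compared: at 10 to 30 CPM 6 of 32 list members passed (18.8%), beside 190 of 2838 of all genes (6.69%). Zinc finger genes with a plain Zfp number, a group chosen after the values were seen, had 8 of 81 past 1.5-fold at that level (9.88%). Over all levels they had 9 of 167 past it (5.39%), beside 2.67% of all well-counted genes. The KRAB list too was chosen with earlier results of these data known, so its share is a description and not a separate finding. Beside Zfp81, 2610020C11Rik and BC011426, the risers were Zfp169, from 13.5 to 25.6 CPM, and BC066107 (now Zfp870), from 33.8 to 54.6 CPM. Beside Zik1, BC066028 (now Zfp941) fell from 15.4 to 7.87 CPM and Zfp780b from 13.2 to 7.62 CPM. Of the 8, 7 had whole counts in both libraries and Zfp780b did not. Of 33 members not well counted, which include predicted loci, 7 were past 1.5-fold, all higher. They were Zfp54 at 1.30 and 4.91 CPM (1.36, interval 0.94 to 3.05), Zfp275 (0.74), Zfp52 (0.69), C230055K05Rik (0.65), Zfp382 (0.59), Zfp354b, from 0 and 6 counts, and the predicted locus EG244556, from 3 and 25 counts.

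None of 22 regulators of H3K9 methylation passed 1.5-fold. Of 23 Polycomb genes, Phc3, of the canonical complex 1, rose from 15.2 to 24.1 CPM, a ratio of 0.64 (0.35 to 0.99), and was at 18.96 CPM at day 9. Below the level, Pcgf1 was past 1.5-fold higher at 6.09 and 10.1 CPM, and Cbx6 lower at 9.72 and 5.76 CPM. Of 14 genes of DNA methylation none passed, and the maintenance methyltransferase Dnmt1 was at 219 and 224 CPM. Mbd2, which binds methylated DNA, was below the level and past 1.5-fold lower, at 11.02 and 6.94 CPM. Among 20 piRNA pathway genes, Piwil1, the PIWI protein of spermatocytes and spermatids, rose from 9.20 to 14.8 CPM, a ratio of 0.63 (0.28 to 1.11), and was at 10.7 CPM at day 9. The PIWI proteins of earlier germ cells did not pass, with Piwil2 at 798 and 782 CPM and Piwil4 at 21.4 and 22.8 CPM. Kif17, below the level, was past 1.5-fold higher from 29 and 74 counts. Imprinted genes were higher in 11 of 15 cases with a median of 0.16 and none past 1.5-fold, and over those at 30 CPM or more the median was 0.032. Below the level 5 imprinted genes were past 1.5-fold: Peg10 (2 and 24 counts), Slc22a18 (10 and 36 counts), Peg12 (16 and 52 counts) and Air (7 and 26 counts) higher, and Magel2 (4 and 0 counts) lower.

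Interferon-stimulated genes were high in both libraries and differed little between them. The summed level of 33 genes was 3738 CPM at day 0, 3967 CPM at day 4 and 3792 CPM at day 9, against 780 CPM in the DMSO feeder library. Usp18, which restrains interferon signalling, was at 347, 360, 310 and 4.99 CPM in that order, and Parp9 at 278, 310, 293 and 28.5 CPM. None of the 25 well-counted genes passed 1.5-fold at day 4; Irf1 was at 276 and 360 CPM (0.38), and Ifi27, below the level, was past it from 6 and 28 counts. Of 16 genes of MHC class I presentation only H2-T23 passed, and B2m was at 593 and 637 CPM. The summed interferon level, like the summed fibroblast level, set day 0 apart from the other feeder culture and close to day 9.

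A pair of libraries that shares none with day 0 or day 4 was read for the genes past 1.5-fold: day 9 on Matrigel against DMSO on feeders, from 2 experiments whose differences cannot be told apart from feeder removal. Of the 144 genes higher at day 4, 85 (59.0%) were higher at day 9 than with DMSO, against 56.6% of all well-counted genes. Of the 91 lower genes, 48 (52.7%) were lower at day 9 than with DMSO, against 43.4% of all. The first share is close to the background, and the second is above it by under 10 percentage points. With a pseudocount of 5 (35.3% against 43.4%) and at 30 CPM or more (26.9% against 38.6%) the second share was below the background.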

How the data were processed

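RNA libraries were made from low input by a modified Smart-seq2 procedure, per the labels' protocols. The authors' processing used RSEM and Trim Galore and the genome build mm10, per the submitters' processing notes; the aligner was not given in the sources used here. Per the file headers, each deposited table gives expected counts, estimated by RSEM and not normalized, and TPM, scaled by the authors to effective length and a fixed total. Expected counts that were not whole (9.08% and 9.52% of genes) were rounded.

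The members and lists were chosen with earlier results of these data known. CPM were scaled with TMM factors over 12 libraries (edgeR 4.0.16, R 4.3.3), and ratios used a pseudocount of 1, which understates changes of low genes. Well-counted genes had a mean of at least 10 CPM, and 7031 named genes with counts fell below it. The 347 predicted loci at that level were set aside; 31 of them passed 1.5-fold. The named genes were the 15 highest and 15 lowest ratios, the 6 largest rises and 6 largest falls in CPM, and list members, those past 1.5-fold first. Some genes are not reported here. Steps were tested on simulated data. Of 1222 listed symbols, names were matched by symbol, older symbol or RefSeq accession (assembly GRCm38.p6, of which mm10 is a name), which also gave coordinates and start windows. Alternatives were DESeq2 1.42.0 size factors, library totals, TMM of 2 libraries, deposited TPM, pseudocounts of 0.1 and 5, other filters and predicted loci kept. Scripts ran in Python 3.11.15 (scipy 1.17.1, pandas 2.3.3, numpy 2.4.6).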

Additional observations from a re-analysis of the deposited data

How the results depend on the processing

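The 235 genes past 1.5-fold became 91 with a pseudocount of 5, 1226 with a mean of at least 1 CPM, 45 at 30 CPM and 1872 with no filter. The 9 past 2-fold became 15 in deposited TPM, 18 and 4 with pseudocounts of 0.1 and 5, 257, 1 and 364 with those filters, and 14 with predicted loci kept. Of the higher genes, 72.5% in TPM and 46.2% at 1 CPM were higher at day 9 than with DMSO (all genes 67.8% and 53.2%); of the lower genes, 36.4% in TPM, 35.3% with a pseudocount of 5 and 26.9% at 30 CPM were lower (all genes 32.2%, 43.4% and 38.6%). So the excess of the lower genes over the background did not hold with the last 2.

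Of 440 recomputed list medians 18 moved by over 0.1. In TPM these were fibroblast markers (0.26), YAP targets (0.13) and TGF-beta and BMP genes (0.17). At 1 CPM they were EMT factors (-0.16), TGF-beta and BMP genes (-0.13), niche factors (0.092), histones (-0.25), Sertoli, Leydig and myoid markers (0.053), endothelial markers (0.035) and pluripotency factors (-0.15). At 30 CPM they were fibroblast markers (0.33), TGF-beta and BMP genes (0.16) and imprinted genes (0.032). With no filter they were EMT factors (-0.18), TGF-beta and BMP genes (-0.18), Sertoli, Leydig and myoid markers (0.053), endothelial markers (0.090) and pluripotency factors (-0.18). The cause was not tested, beyond the filters testing other genes. Of 252 recomputed values of the 42 named genes, 12 left their counting interval, none turned direction, and none of the 31 genes past 1.5-fold fell short of it under the 6 alternatives run for them. Of the 18 list genes past 1.5-fold, 10 also passed with a pseudocount of 5 and 8 did not.

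No paired analysis was possible because each group held 1 library. No library was left out, since that leaves a side empty. Depth limits what is shown for genes below 10 CPM.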
